A study of Mus musculus with 12 samples.

Results

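Tfrc, Tal1, Icam4, Abcb10 and Cd24a are 5 of the 561 genes counted by the NanoString nCounter Mouse Immunology panel, which hybridizes barcoded probe pairs to RNA and counts them without amplification. They were grouped because they were among the genes with the largest rises in spleens of ampicillin-treated mice and because precursors of red blood cells express them. Their values in spleen are therefore a description of what chose them and not a test. All samples came from mice of 1 strain, labelled C57BL6 Exon 16 KO Hemophilia A, so the controls carry the knockout too. The 4 groups of 3 samples were spleens of mice gavaged with ampicillin when they were 3 weeks old (Amp Spleen), spleens of control mice (Ctrl Spleen), mesenteric lymph nodes of ampicillin-treated mice (Amp MLN) and mesenteric lymph nodes of control mice (Ctrl MLN), all taken at 6 weeks of age. The labels number 12 different mice, so no mouse gave both tissues, and no control group is described as gavaged without the antibiotic.

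Red blood cells arise from precursors that divide while they fill with haemoglobin, for which they take up large amounts of iron and make haem in their mitochondria. In adult mice this happens in bone marrow and, unlike in humans, also in the red pulp of the spleen, which expands its share of the work under stress such as blood loss. Lymph nodes are not a site of red cell formation. Tfrc encodes the transferrin receptor, which imports iron and is also present on other dividing cells. Tal1 encodes a transcription factor needed for blood stem cells and for the red cell and platelet lineages. Abcb10 encodes a transporter of the inner mitochondrial membrane that is needed for haemoglobin production in red cell precursors. Icam4 encodes an adhesion molecule of red cells and their precursors that binds integrins, and Cd24a a small surface protein of red cell precursors, developing B cells and granulocytes.

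The panel allowed no check of the cell type against defining genes. Of 16 such genes that were listed, among them those for haemoglobin chains, the erythropoietin receptor and the transcription factors Gata1 and Klf1, 0 were in the table. The 5 genes are called by their names below for that reason. Tissue markers fitted the labels for 5 of 6 genes listed. Cr2 and Itga2b were higher in every spleen than in every node, Cd3e, Ccr7 and Lef1 were higher in every node, and Marco, listed for spleen, stood at 1133 to 1787 scaled counts in spleens and at 3182 to 4469 in nodes. Totals ran from 396950 to 738489 counts per sample. Scaled counts below are counts brought to 1 common level of 14 housekeeping genes (their geometric mean).

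The promoter sequences of genes that rose and fell together over samples are shown because GATA, E-box and KLF sites are the DNA elements that red cell transcription factors are known to use. RefSeq windows (build GRCm38.p6) were found for 4 of the 5 genes, all but Cd24a, in 6 windows. The first window of each gene is printed over the 250 bases before the transcription start, with matches in capitals.
Icam4, chr9:21029182-21029431 (+ strand): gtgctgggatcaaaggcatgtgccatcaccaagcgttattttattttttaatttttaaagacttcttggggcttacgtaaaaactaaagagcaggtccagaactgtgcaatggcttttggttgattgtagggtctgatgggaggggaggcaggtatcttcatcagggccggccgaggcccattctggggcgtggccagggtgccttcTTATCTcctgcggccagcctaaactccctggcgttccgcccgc
Tal1, chr4:115056176-115056425 (+ strand): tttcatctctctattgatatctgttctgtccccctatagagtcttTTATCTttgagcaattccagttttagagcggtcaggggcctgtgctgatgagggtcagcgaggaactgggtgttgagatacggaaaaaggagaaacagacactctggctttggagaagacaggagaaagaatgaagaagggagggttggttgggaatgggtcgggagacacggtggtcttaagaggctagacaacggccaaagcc
Tfrc, chr16:32608646-32608895 (+ strand): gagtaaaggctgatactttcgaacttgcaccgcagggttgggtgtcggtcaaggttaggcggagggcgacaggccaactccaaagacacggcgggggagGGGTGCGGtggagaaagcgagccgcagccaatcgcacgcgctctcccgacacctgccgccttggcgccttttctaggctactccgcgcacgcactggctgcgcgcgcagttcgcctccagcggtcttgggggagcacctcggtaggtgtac
Abcb10, chr8:123983123-123983372 (- strand): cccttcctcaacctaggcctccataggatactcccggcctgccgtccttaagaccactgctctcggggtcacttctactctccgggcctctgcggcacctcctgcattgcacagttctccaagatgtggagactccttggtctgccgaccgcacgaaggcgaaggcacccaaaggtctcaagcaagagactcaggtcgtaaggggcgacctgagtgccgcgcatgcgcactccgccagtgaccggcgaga
Each search covered both strands. The GATA words began with AGATA or TGATA and ended in A or G, the KLF words were CCACACCC, CCGCACCC and CCCCACCC, and the E-box words were CAGATG and its counterpart with central letters GC, CAGCTG. The Icam4 window held 1 GATA word on the reverse strand, 38 to 43 bases before the start, and the Tal1 window held 1, 200 to 205 bases before it. Of the 6 windows, 2 held a GATA word, against 26.5% of 32841 windows of all genes. A KLF word was found in both Tfrc windows, against 13.1% of all windows, and an E-box word in 0 of the 6, against 25.5%. The Abcb10 window and the other Tal1 window held none of these words, so the 4 genes do not have any of them in common.

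The values in spleen were high in 2 of the 3 ampicillin-treated mice and not in the other. Tfrc stood at 609, 5132 and 3941 scaled counts in Amp Spleens 1, 2 and 3, against 774, 1102 and 544 in Ctrl Spleens 1, 2 and 3. Tal1 stood at 104, 1323 and 937 scaled counts in Amp Spleens 1 to 3, against 145, 275 and 115 in Ctrl Spleens 1 to 3. For both genes Amp Spleens 2 and 3 lay far above every control, while Amp Spleen 1 lay at or near the bottom of the 6 spleens. Abcb10, the mitochondrial transporter, had 87.3, 754 and 604 scaled counts in Amp Spleens 1 to 3, against 103, 149 and 72.1 in the controls. Icam4, the red cell adhesion molecule, had 10.3, 281 and 189 in Amp Spleens 1 to 3, against 28.6, 42.7 and 15.6 in the controls. For Icam4 too Amp Spleens 2 and 3 were highest, while Amp Spleen 1 and Ctrl Spleen 3, on 12 and 16 counts, were too low to be put in order. Cd24a stood at 1016, 5479 and 4196 scaled counts in Amp Spleens 1 to 3, against 1546, 1695 and 1219 in Ctrl Spleens 1 to 3, with Amp Spleen 1 lowest.

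**Figure D1:**
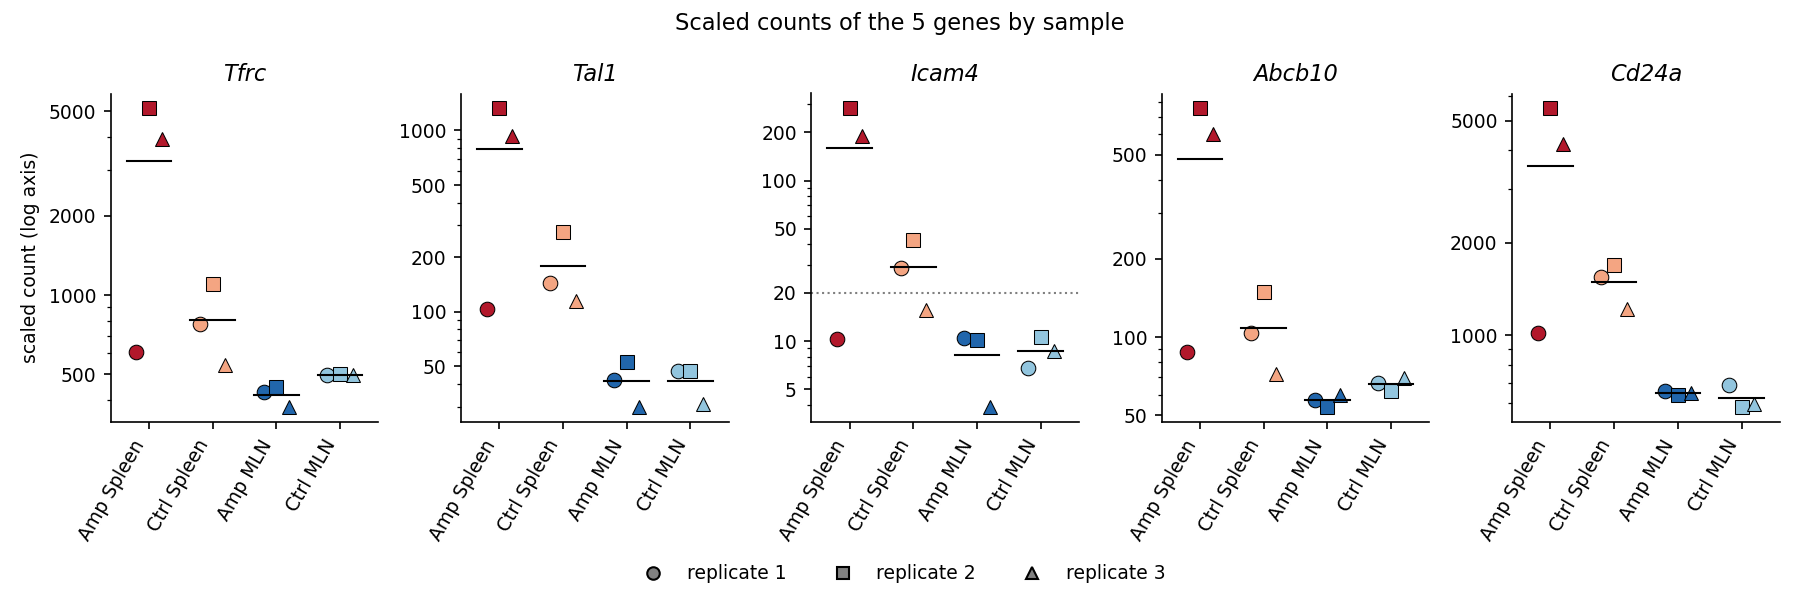
Scaled counts (log axis, a separate range in each panel) of Tfrc, Tal1, Icam4, Abcb10 and Cd24a in 12 samples; symbols give the replicate, black lines the mean of 3 samples and the dotted line, in the Icam4 panel, 20 scaled counts. Amp Spleens 2 and 3 stand above all other samples for each gene, while Amp Spleen 1 lies within or below the range of the Ctrl Spleens, and the nodes of both groups lie low and close together.

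Because of Amp Spleen 1 the 2 groups of spleens overlapped for each of the 5 genes. Of the 445 tested genes 2.92% were higher and 31.7% lower in every Amp Spleen than in every Ctrl Spleen, and 0 of the 5 genes were among them. The group means were 3227 ± 2345 scaled counts in Amp Spleen and 806 ± 281 in Ctrl Spleen for Tfrc (SD, n = 3 each). For Cd24a they were 3563 ± 2298 in Amp Spleen and 1486 ± 243 in Ctrl Spleen. The log2 change of the edgeR fit was 2.00 for Tfrc, 2.14 for Tal1, 2.43 for Icam4, 2.14 for Abcb10 and 1.26 for Cd24a, with a median of -0.17 over all 445 genes. That fit called 2.25% of the 445 genes higher. The 5 genes were chosen by the values of these same spleens, so being among those called is no test of them. In a fit of the 6 spleens alone edgeR called 0 of the 445, with 122 at an unadjusted p under 0.05. Without Amp Spleen 1 the log2 changes were 2.49 for Tfrc, 2.66 for Tal1, 3.00 for Icam4, 2.64 for Abcb10 and 1.70 for Cd24a. Without Amp Spleen 2 they were lower, between 0.81 for Cd24a and 1.78 for Icam4. With trimmed mean (TMM) scaling, which put the median of all genes at 0.00063 in place of -0.17, the changes relative to that median were 2.23 for Tfrc and 1.49 for Cd24a, and with housekeeping scaling 2.17 for Tfrc and 1.43 for Cd24a.

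The size of the difference in Amp Spleens 2 and 3 was not the same for all 5 genes. Relative to the mean of the Ctrl Spleens, Icam4 was 9.71-fold higher in Amp Spleen 2 and 6.53-fold higher in Amp Spleen 3. Cd24a was 3.69-fold and 2.82-fold higher in these spleens, the smallest folds of the 5 genes. Tal1 (7.43-fold and 5.26-fold), Abcb10 (6.97-fold and 5.58-fold) and Tfrc (6.36-fold and 4.89-fold) lay between them, with Abcb10 above Tal1 in Amp Spleen 3. Amp Spleen 2 exceeded Amp Spleen 3 by 1.25-fold (Abcb10) to 1.49-fold (Icam4) on the housekeeping scale. The unscaled counts of each gene were higher in Amp Spleen 3, whose total was 603921 counts against 402541 in Amp Spleen 2, so the order of these spleens rests on the scaling.

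The 3 control mice also differed from each other, and in the same order for each of the 5 genes. Ctrl Spleen 2 was highest, Ctrl Spleen 1 intermediate and Ctrl Spleen 3 lowest. Ctrl Spleen 2 exceeded Ctrl Spleen 3 by 2.03-fold for Tfrc, 2.39-fold for Tal1, 2.07-fold for Abcb10 and 1.39-fold for Cd24a. For Icam4 it was at least 2.14-fold higher, taking 20 scaled counts as the lowest interpretable level. Cd24a therefore had the narrowest range in untreated spleens too. Over all 6 spleens the 5 genes shared the same sample at 4 of the 6 ranks, namely Amp Spleen 2, Amp Spleen 3, Ctrl Spleen 2 and Ctrl Spleen 1 from the top. The bottom ranks were held by Amp Spleen 1 and Ctrl Spleen 3, with Amp Spleen 1 lowest for Cd24a, Ctrl Spleen 3 lowest for Tfrc and Abcb10, and no order for Icam4. For Tal1 Amp Spleen 1 was lower on the housekeeping scale only. On 121 unscaled counts in Amp Spleen 1 and 118 in Ctrl Spleen 3 these spleens are not put in order.

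Ratios of counts within a sample do not depend on the scaling, and they divided the genes into those that kept step with Tfrc and those that did not. The ratio of Abcb10 to Tfrc stayed between 0.121 and 0.159 in all 12 samples, a 1.31-fold range, while Tfrc itself ranged 13.7-fold. In spleens it was 0.143, 0.147 and 0.153 in Amp Spleens 1 to 3, against 0.134, 0.135 and 0.133 in the controls, so each Amp Spleen lay slightly above each Ctrl Spleen. With 102 Abcb10 counts in Amp Spleen 1 and 74 in Ctrl Spleen 3, so small a gap is not read as a difference and was not tested. The ratio of Tal1 to Tfrc was 0.170 to 0.258 in Amp Spleen and 0.187 to 0.249 in Ctrl Spleen. In nodes it was 0.0796 to 0.119 in Amp MLN and 0.0625 to 0.0941 in Ctrl MLN, below every spleen. The ratio of Cd24a to Tfrc was 1.67, 1.07 and 1.06 in Amp Spleens 1 to 3, against 2.00, 1.54 and 2.24 in Ctrl Spleens 1 to 3. It was 1.43 to 1.73 in Amp MLN and 1.17 to 1.38 in Ctrl MLN, so low ratios were found both where the 2 genes were highest and where they were low. Between pairs of the 5 genes, Pearson correlations of log2 levels over the 12 samples ran from 0.95 to 1.00, and from 0.83 to 0.97 without Amp Spleens 2 and 3. These are descriptions over samples that share tissue and treatment.

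**Figure D2:**
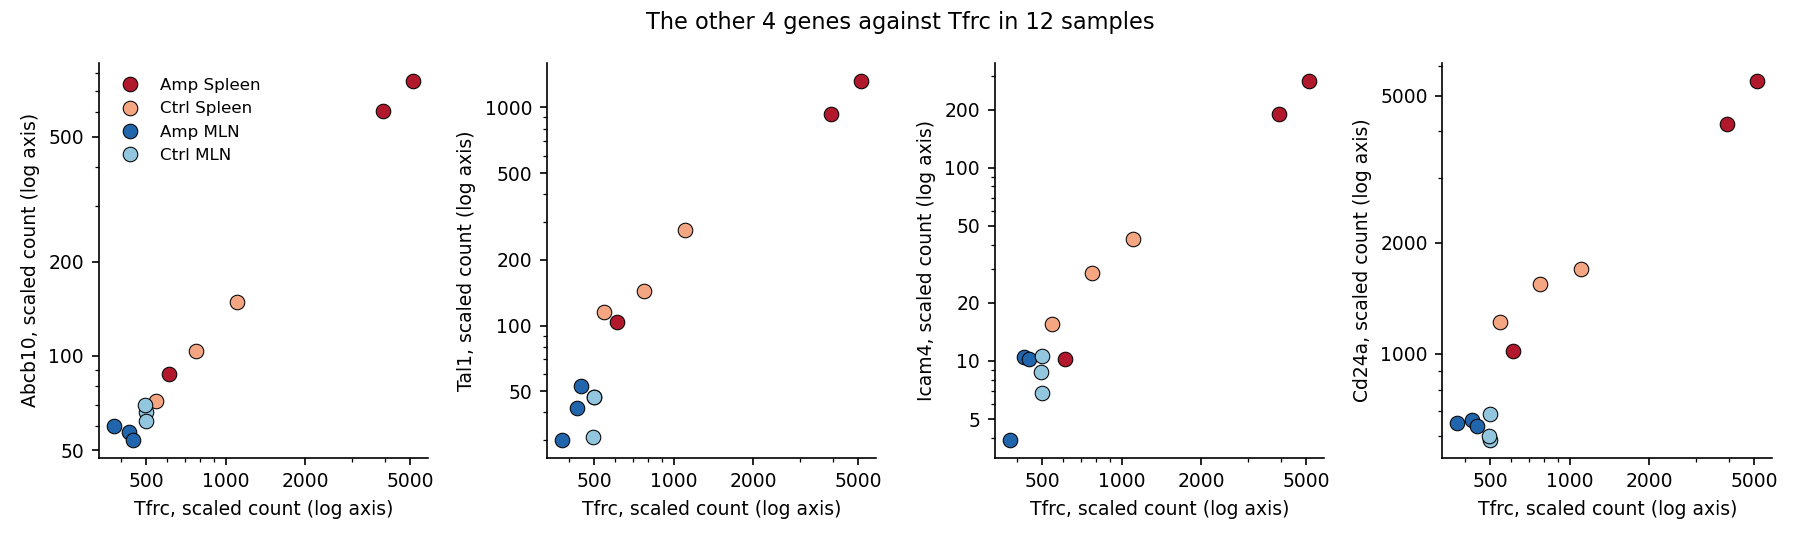
Scaled counts of Abcb10, Tal1, Icam4 and Cd24a (vertical, log axis) against Tfrc (horizontal, log axis); each point is 1 of 12 samples, coloured by group. Abcb10 follows Tfrc on 1 line through spleens and nodes, while for Tal1 the nodes lie below the spleens at similar Tfrc levels.

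Lymph nodes held less of each gene than spleens. These differences are given without a test, since the spleens were used in choosing the genes. Tal1 averaged 41.5 ± 11.5 scaled counts in Amp MLN and 788 ± 623 in Amp Spleen, and 41.6 ± 9.20 in Ctrl MLN and 178 ± 84.9 in Ctrl Spleen (SD, n = 3 each). Its mean in untreated mice was thus 4.29-fold higher in Ctrl Spleen. Cd24a averaged 623 ± 55.4 scaled counts in Ctrl MLN and 1486 ± 243 in Ctrl Spleen, and was 2.39-fold higher in Ctrl Spleen. Tfrc and Abcb10 differed less, being 1.62-fold and 1.64-fold higher in Ctrl Spleen than in Ctrl MLN. Icam4 stood at 10.4, 10.2 and 3.90 scaled counts in Amp MLN 1 to 3 and at 6.84, 10.5 and 8.72 in Ctrl MLN 1 to 3, on 3 to 11 counts per sample. These lie under the 20 scaled counts taken as the lowest interpretable level, as did Amp Spleen 1 and Ctrl Spleen 3. Against that level Icam4 was at least 8.02-fold higher in Amp Spleen and at least 1.45-fold higher in Ctrl Spleen, and it passed the filter on low counts only through Amp Spleens 2 and 3. In untreated mice the nodes lay below the spleens without overlap for Tfrc, Tal1, Abcb10 and Cd24a, as for 40.0% of all tested genes, while 35.3% were higher in every node. Icam4 is not counted there, since Ctrl Spleen 3 and the nodes were all under 20 scaled counts. In ampicillin-treated mice the nodes lay below the spleens for the same 4 of the 5 genes, against 30.3% of all tested genes, with 32.8% higher in every node. With Icam4 left aside, the smallest gaps between any spleen and any node were 1.09-fold for Tfrc and 1.03-fold for Abcb10.

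The nodes gave the comparison of ampicillin and control that had no part in choosing the genes. There edgeR did not call Tfrc, Tal1, Abcb10 or Cd24a, with 0 at an unadjusted p under 0.05 in the fit of all 12 samples. DESeq2 also called 0 of them. Icam4, on 3 to 11 counts per node sample, was too low to be judged. Tfrc stood at 428, 445 and 376 scaled counts in Amp MLN 1 to 3, against 498, 500 and 495 in Ctrl MLN 1 to 3. Abcb10 stood at 57.4, 54.0 and 59.8 scaled counts in Amp MLN 1 to 3, against 66.4, 62.1 and 69.8 in Ctrl MLN 1 to 3. For both genes each Amp MLN lay below each Ctrl MLN, the direction opposite to that of the means in spleen, as was the case for 20.7% of all tested genes, while 10.3% were higher without overlap. The log2 change was -0.26 for Tfrc (SE 0.53, adjusted p = 0.80) and -0.22 for Abcb10 (SE 0.62, adjusted p = 0.86) in the edgeR fit of all 12 samples. The spread per gene in that fit is shared over the 4 groups and takes in the scatter of the Amp Spleens. A fit of the 6 node samples alone gave the same changes with an SE of 0.086 for Tfrc (adjusted p = 0.099, edgeR) and 0.16 for Abcb10 (adjusted p = 0.43, edgeR), so neither was called there, although the unadjusted p of Tfrc was 0.014 in that fit. Over all tested genes 0.449% were called in the nodes by edgeR in the fit of 12 samples, 0.225% higher and 0.225% lower, and the median log2 change was -0.05.

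Cd24a and Tal1 overlapped between the groups of nodes. Cd24a had 660, 637 and 649 scaled counts in Amp MLN 1 to 3, against 686, 585 and 598 in Ctrl MLN 1 to 3. The highest and the lowest of these values were both from controls. Its log2 change was 0.06 (SE 0.41, adjusted p = 0.95, edgeR), with an SE of 0.081 in the fit of nodes alone. Tal1 had 41.8, 53.0 and 29.9 scaled counts in Amp MLN 1 to 3, against 46.9, 46.9 and 30.9 in Ctrl MLN 1 to 3, and a log2 change of 0.04 (SE 0.84, adjusted p = 0.98, edgeR). At 23 to 52 counts per node sample Tal1 was too low for a small change to be seen. Icam4, below 20 scaled counts in every node, allows no fold. In 24 other settings the adjusted p of Tfrc, Tal1, Abcb10 and Cd24a was never under 0.099, nor that of Icam4 in the 22 that gave it one.

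**Figure D3:**
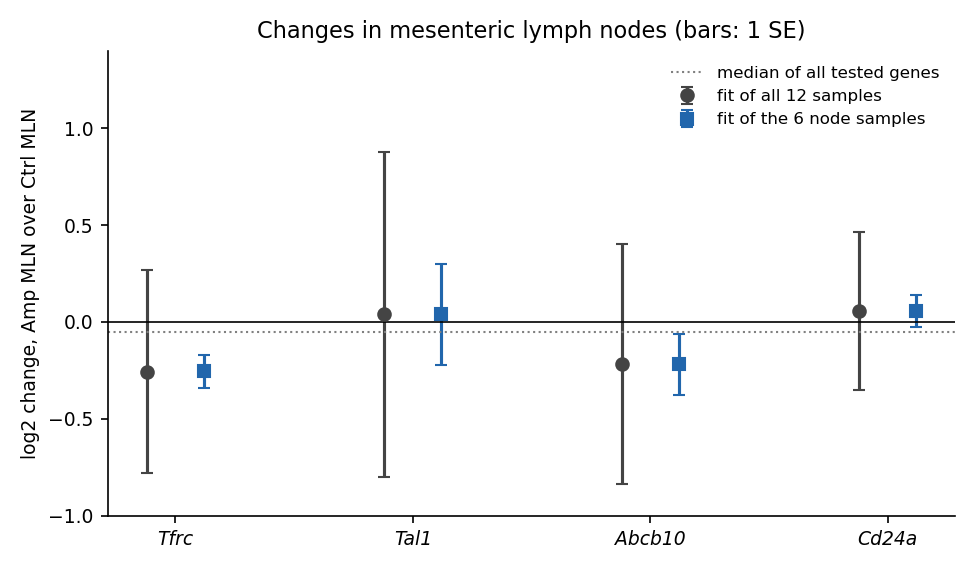
Log2 change of Tfrc, Tal1, Abcb10 and Cd24a in Amp MLN over Ctrl MLN, with bars of 1 SE, in the edgeR fit of all 12 samples (circles) and of the 6 node samples alone (squares); the dotted line is the median of all tested genes, -0.05. The estimates hardly differ between the fits, while the SE of Tfrc is 0.53 in the fit of 12 samples and 0.086 in the fit of 6.

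Genes known to work with these 5, or in neighbouring stages of blood formation, were set beside all tested genes. A list of 117 such genes covered iron and haem handling, blood stem cells and progenitors, partners of Tal1, megakaryocytes and platelets, integrins that bind Icam4, other ICAM genes, ABC transporters, Cd24a receptors and the response to anaemia. Of these 56 were in the table and 51 were tested. In spleen 2 were higher and 4 lower in the edgeR fit, where 2.25% of all tested genes were called higher and 14.6% lower. Before adjustment 20 of the 51 had an edgeR p under 0.05 in spleen, as had 158 of all 445 genes. DESeq2 on housekeeping factors called 13 of the 51 in spleen and 95 of all 445 genes. The split depends on the scaling. With TMM factors 11 of all genes were called higher and 11 lower, and 2 and 1 of the listed genes. With DESeq2 on its own size factors 25 of all genes were called higher and 29 lower, and 6 and 1 of the listed genes. With housekeeping scaling the median log2 change of the 51 was -0.14, against -0.17 for all genes. In nodes edgeR called 0 of the 51 and DESeq2 5, while 14 had an edgeR p under 0.05 before adjustment. Among the 51, the platelet genes Ppbp and Gp1bb were under 20 scaled counts in every node and could not be judged there.

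The 2 that rose were Cd34, a surface protein of progenitors and blood vessels, and Fkbp5, which binds steroid receptor complexes and is induced by glucocorticoids. Cd34 had 334, 243 and 275 scaled counts in Amp Spleens 1 to 3, against 187, 218 and 170 in the controls (log2 change 0.57, SE 0.17, adjusted p = 0.040, edgeR). It was highest in Amp Spleen 1, the spleen in which Tfrc, Tal1 and Icam4 were low. Fkbp5 had 286, 195 and 404 scaled counts in Amp Spleens 1 to 3, against 166, 192 and 186 in the controls (log2 change 0.71, SE 0.21, adjusted p = 0.038, edgeR). The 4 that fell were Gata3, a T cell factor of the GATA family (-0.51), Itgal and Itgax, integrin chains that bind ICAMs (-0.33 and -0.44), and Tap1, the peptide transporter of antigen presentation (-0.56). These 6 calls depended on single spleens. The count was 17 without Amp Spleen 1, 1 without Amp Spleen 2 and 2 without Amp Spleen 3. It was 0, 1 and 1 without Ctrl Spleens 1, 2 and 3, 3 without Ctrl MLN 3, and 0 in a fit of the 6 spleens alone, where 13 had an unadjusted p under 0.05.

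Of the other listed genes, up to 3 of each list with the largest change in spleen are given by their log2 changes, since none passed the test. Among genes of stem cells and progenitors, Ikzf2, a transcription factor also of T cells, had a log2 change of -0.45, and Cxcr4, the receptor that holds progenitors in marrow, one of 0.45. Cxcr4 was highest in Amp Spleen 1, at 3503 scaled counts. Among partners of Tal1, Ets1 had a log2 change of -0.22 and Tcf4, an E protein of the kind Tal1 pairs with, one of -0.22. Of 3 iron and haem genes tested, Cd163, the macrophage receptor that clears haemoglobin, stood at -0.27, Cybb, a haem-containing oxidase subunit, at -0.14 and Hfe, which binds the transferrin receptor, at 0.01. Hfe averaged 604 ± 58.4 scaled counts in Amp Spleen and 602 ± 56.1 in Ctrl Spleen (SD, n = 3 each). Among adhesion genes related to Icam4, Icam2 stood at -0.27, Vcam1 at 0.15 and Icam1 at -0.01. Socs3 and Stat5b, of the signalling pathway below cytokine receptors, stood at -0.34 and -0.25. Tcf4, Cd163, Icam2, Socs3 and Stat5b were lower in every Amp Spleen than in every Ctrl Spleen, as were 31.7% of all tested genes. The transporter genes Abcf1 and Abcb1a stood at 0.13 and 0.12, and Selplg, a selectin ligand, at -0.27.

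Platelet genes share a precursor with red cells, and edgeR called 0 of 7 tested in spleen and 0 in nodes, where 3 and 2 had an unadjusted p under 0.05 and DESeq2 called 2 and 2. Of these 7, Ppbp and Gp1bb were under 20 scaled counts in every node and could not be judged there. Ppbp, a platelet chemokine, had 1911, 2719 and 3613 scaled counts in Amp Spleens 1 to 3, against 3613, 4871 and 2796 in the controls. Itga2b, the platelet integrin chain, had 276, 355 and 490 in Amp Spleens 1 to 3, against 514, 713 and 436 in the controls. Both genes were lowest in Amp Spleen 1, and in controls both followed the order of the 5 genes, with Ctrl Spleen 2 highest and Ctrl Spleen 3 lowest. In Amp Spleens 2 and 3 both lay within or below the range of the controls. Gp1bb, a chain of the platelet receptor for von Willebrand factor, had a log2 change of -0.49. Cd36, a scavenger receptor of platelets and other cells that is named here after its values were seen, went the other way. It had 1937, 2506 and 2070 scaled counts in Amp Spleens 1 to 3, against 1776, 1708 and 1748 in the controls (log2 change 0.32, SE 0.12, adjusted p = 0.087, edgeR).

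Markers of other cells in the spleen differed between the same samples. The summed level of 18 T cell genes was 12089, 8553 and 7968 scaled counts in Amp Spleens 1 to 3, against 12333 to 13507 in Ctrl Spleen. That of 13 B cell genes was 32676, 27790 and 28282 in Amp Spleens 1 to 3, against 34250 to 35555 in Ctrl Spleen. On this scale both sums were lowest in the spleens in which the 5 genes were highest. With TMM factors the T cell sum was 11751, 9538 and 8860 in Amp Spleens 1 to 3, against 11342 to 13053 in Ctrl Spleen. The B cell sum was then 30991 to 31763 in Amp Spleen and 31498 to 33991 in Ctrl Spleen, so the groups overlapped for both sums. Amp Spleens 2 and 3 still held the lowest sums. For B cells this was narrow, at 30991 and 31446.5 against 31498 in Ctrl Spleen 2. In bulk tissue fewer cells of a type and less RNA per cell cannot be told apart. Of these lists 9 of 18 T cell genes and 4 of 13 B cell genes were called lower, 0 higher, against 14.6% called lower of all genes. With TMM factors 5 T cell and 0 B cell genes were called lower, where 11 of all 445 genes were. With factors from the median of tested genes it was 3 and 0, where 9 of all 445 genes were called lower. In the 6 spleens alone edgeR called 0 of either list, with 10 T cell and 8 B cell genes at an unadjusted p under 0.05. The sum of 9 neutrophil genes was 6065, 13411 and 21438 in Amp Spleens 1 to 3, against 9705 to 18245 in Ctrl Spleen, and was lowest in Amp Spleen 1. That sum is carried by S100a8 and S100a9, which had 2320 and 2421 scaled counts in Amp Spleen 1, while Cxcr2 (248), Csf3r (234) and Cebpb (403) were highest of the 6 spleens there. These genes, other than Cebpb, are named after their values were seen. Of its 8 tested genes 1, Cebpb, was called higher. The 12 monocyte and macrophage genes summed to 9881 to 12438 in Amp Spleen and to 11341 to 12265 in Ctrl Spleen, with 0 of 12 called by edgeR, 3 at an unadjusted p under 0.05 and 0 called by DESeq2. A list of 15 genes on proliferation and growth had 5 on the panel, namely Cdkn1a, C1qbp, Xbp1, Trp53 and Mapkapk2. They summed to 3427 to 3711 in Amp Spleen and 3591 to 3628 in Ctrl Spleen, with 1, C1qbp, called higher. With so few of the list on the panel, the sum is not read as a measure of cell division. Cdkn1a and Trp53 are named after their values were seen. No gene of these lists was at 0 counts in any sample. Their part in the values of the 5 genes was not tested.

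**Figure D4:**
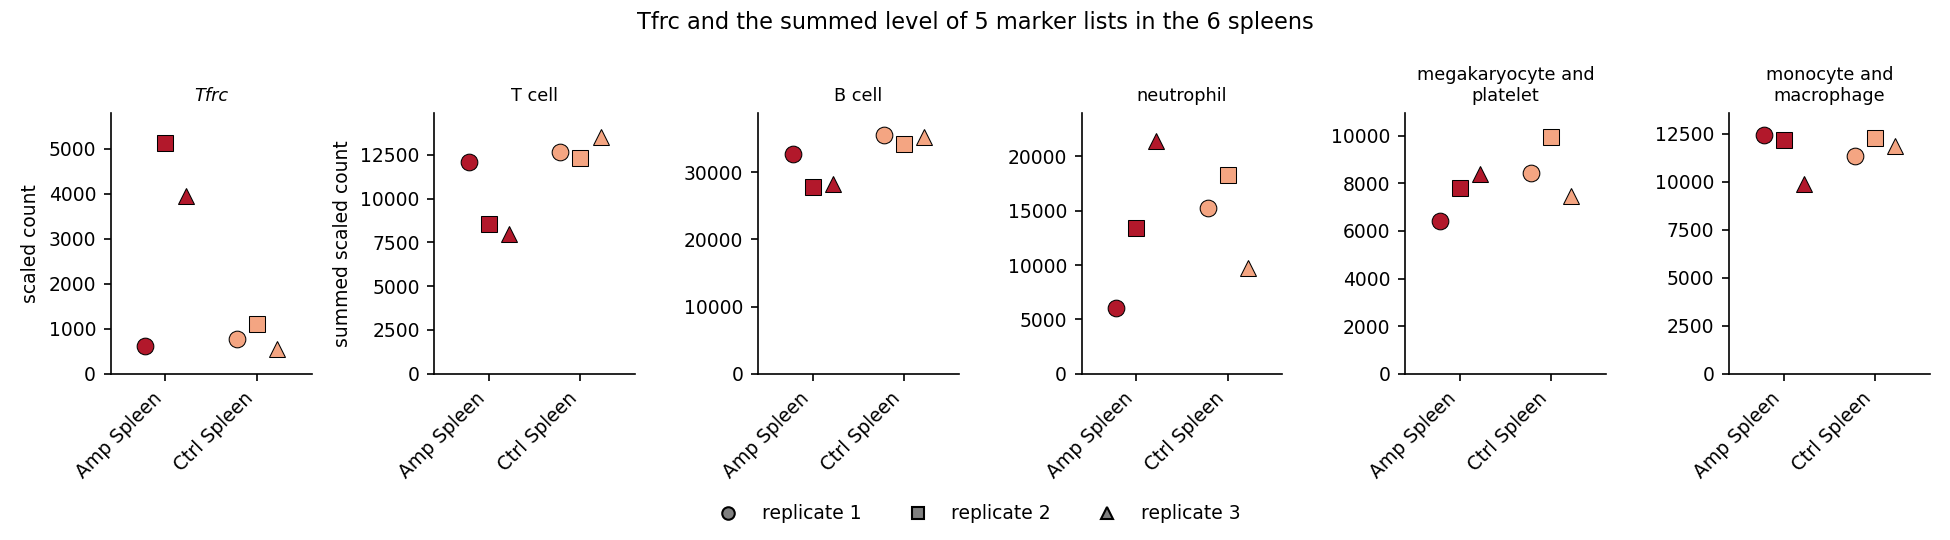
Tfrc (scaled count) and the summed scaled counts of 18 T cell, 13 B cell, 9 neutrophil, 7 megakaryocyte and platelet and 12 monocyte and macrophage genes in the 3 Amp Spleens and 3 Ctrl Spleens, each axis starting at 0. On the housekeeping scale the T and B cell sums are lowest in Amp Spleens 2 and 3, where Tfrc is highest, and the neutrophil and platelet sums are lowest in Amp Spleen 1. With TMM factors the T cell sums and the B cell sums both overlap between the groups, with Amp Spleens 2 and 3 still lowest, narrowly so for B cells.

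The 8 other tested genes whose pattern was most like that of the 5 were ranked by Pearson correlation of log2 levels with the mean standardised profile of the 5 over the 12 samples. They were Ccrl2, a chemerin-binding receptor (0.93), Il1rl1, the interleukin 33 receptor (0.91), Phlpp2, a phosphatase of AKT signalling (0.90), Cd82, a tetraspanin (0.85), Tnfrsf14, a receptor of the TNF family (0.85), Psmd7, a proteasome subunit (0.83), Prim1, the catalytic subunit of DNA primase (0.83), and Ctsg, a granule protease of neutrophils (0.82). Amp Spleens 2 and 3 carried much of this likeness. Without them the correlation was 0.05 for Prim1, 0.36 for Tnfrsf14 and 0.55 for Ccrl2, but 0.90 for Ctsg, 0.88 for Cd82 and 0.84 for Phlpp2. Prim1, needed to start DNA synthesis, had 140, 332 and 348 scaled counts in Amp Spleens 1 to 3, against 168, 205 and 141 in the controls, and 160 to 198 in Amp MLN. Ctsg had 26.5, 85.3 and 105 scaled counts in Amp Spleens 1 to 3, against 62.8, 86.4 and 36.0 in the controls. In Amp Spleen 2 it lay within the range of the controls and in Amp Spleen 3 above it. The same spleens were used in choosing the 5 genes and in this ranking, so these likenesses carry no test.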

How the data were processed

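Counts from the nCounter panel were read from the deposited table, 1 column per sample and 12 in all. The design text names normalization to 14 housekeeping genes in nSolver, but the deposited counts did not carry it: the housekeeping geometric mean differed 1.65-fold between samples, and the lowest whole number missing from any sample was 18. The values were therefore used as raw counts. Another deposited table held 12 columns whose names match no sample and was not used.

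Counts were divided by housekeeping factors, the 14 genes being named from knowledge of the panel. A mean scaled count of 20 or more was required, which left 445 genes, all 5 members included, and removed 102. edgeR 4.0.16 (R 4.3.3) was used for quasi-likelihood tests on 4 group means over 12 samples (8 residual degrees of freedom), adjusted by Benjamini-Hochberg across the 445. Genes were called at an adjusted p under 0.05. SE is the log2 change divided by the root of the F value. Log2 levels used a pseudocount of 1. Alternatives used limma 3.58.1, DESeq2 1.42.0, other scalings, filters and sample sets.

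The members, gene lists and naming rule were chosen with earlier results of these data known. Named were the 5 genes, called genes of the partner and precursor lists, up to 3 genes of each list with the largest change in spleen, the tissue markers and the 8 most alike genes. All 5 symbols are current in RefSeq (GRCm38.p6); no build is given for the probes. Within groups, each pair of samples had a chi-square per degree of freedom of 4.00 to 55.8, above the sampling noise, and all were kept. In the main fit the p-values set a difference of group means against the spread between mice, estimated over all 4 groups of 3.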

Additional observations from a re-analysis of the deposited data

How the results depend on the processing

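No setting turned the direction of the 5 genes in spleen, of Tfrc, Abcb10 or Cd24a in nodes, or of the differences between tissues. Tal1 and Icam4, near 0 in nodes, took either sign there. Tfrc, Tal1, Abcb10 and Cd24a were called in nodes in no setting, and Icam4 was too low there to be judged. The fitted log2 difference of Icam4, nodes against spleens, is no measured fold, since the nodes are under 20 scaled counts. It was -4.22 in ampicillin-treated and -1.74 in control mice with edgeR, and -2.15 and -0.73 with limma on log2(scaled count + 20).

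The counts over all genes moved more. In nodes, 2 genes became 32 with TMM factors, 35 with TMM factors computed without the 5 genes (chosen after seeing the data), 26 with factors from the median of tested genes, 22 and 44 with DESeq2 on housekeeping and on its own size factors, and 15 with the 6 node samples alone. They ranged from 0 to 32 with 1 sample left out: 32 without Amp Spleen 1, 0, 1 and 4 without Amp MLN 1 to 3, and 0, 6 and 0 without Ctrl MLN 1 to 3. In spleen, 75 became 22, 21 and 19 with these 3 scalings, 44 with limma on log2(scaled count + 1) and 0 with the 6 spleens alone (122 at an unadjusted p under 0.05), and ranged from 0 to 159 with 1 sample left out: 159, 4 and 17 without Amp Spleens 1 to 3, 0, 12 and 32 without Ctrl Spleens 1 to 3, and 44 and 46 without Ctrl MLN 2 and 3. The methods' t-test gave 0 after adjustment in spleen (76 at an unadjusted p under 0.05) and 0 of the listed partner and precursor genes; at the fold and level of the design text it gave 52 genes in spleen, 0 of them among the 5, and 35 in nodes. The 6 listed genes became 3 with each of the 3 scalings, 13 with DESeq2 on housekeeping factors, 2 and 3 with limma at pseudocounts of 1 and 20, and 0 with spleens alone, and ranged from 0 to 17 with 1 sample left out. The cause of these shifts was not tested.

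The titles give each group numbers 1 to 3. Each number stands for a different mouse per group, and same-numbered samples did not deviate together (correlations of -0.38 to 0.24 in spleens and -0.35 to -0.04 in nodes). With a replicate block the counts were 0 in nodes (83 at an unadjusted p under 0.05, and 22 called by DESeq2 without a block), 41 in spleen and 3 listed genes. Groups of 3 and, for Icam4 and Tal1, low counts in nodes limit what could be seen.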
